A study of Mus musculus with 16 samples.

Results

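Transforming growth factor β (TGF-β) signaling is described here in cultured mouse astrocytes through 9 genes, which encode the ligands Tgfb1, Tgfb2 and Tgfb3, the receptors Tgfbr1 and Tgfbr2, and the intracellular SMAD proteins Smad2, Smad3, Smad4 and Smad7. The genes were chosen by symbol, and 9 of 9 were found among the 16707 genes of the expression table. RNA was sequenced from primary astrocytes that had been selected on the surface antigen ACSA-2 from the brains of 6-day-old pups and grown without serum. The pups were WT (C57BL/6J) or lacked Nlrx1 (Nlrx1-/-), which encodes a mitochondrial regulator of innate immunity. Each of the 4 WT and 4 Nlrx1-/- litters gave 1 well treated with vehicle for 24 h and 1 well treated with lipopolysaccharide (LPS, 500 ng/mL) and interferon γ (IFNγ, 10 ng/mL) for 24 h, so that there were 16 libraries in 4 groups of 4. The replicate was the litter, that is, 1 set of mice whose cells were divided between both wells. The deletion was in every cell of the animal, so that it was not restricted to astrocytes.

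TGF-β ligands are secreted in a latent form, held by latent TGF-β binding proteins in the extracellular matrix until integrins or proteases release them. The active ligand binds the type II receptor Tgfbr2, which recruits and phosphorylates the type I receptor Tgfbr1. Tgfbr1 then phosphorylates Smad2 and Smad3, which enter the nucleus with Smad4 and regulate target genes, while the inhibitory Smad7 blocks the receptor and is itself induced by the pathway. In the brain, TGF-β is known to restrain glial inflammation and to drive matrix and scar genes in astrocytes. RNA levels do not show whether a ligand was active or a SMAD was phosphorylated.

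The libraries held 27259420 to 43752903 reads assigned to transcripts. Levels of 1 gene across libraries are given as the deposited log2 CPM, the log2 of read abundance after scaling for transcript length and library composition, and a difference of 1 on this scale is a doubling. Nlrx1 averaged 4.22 ± 0.15 in vehicle-treated WT and 2.47 ± 0.53 in vehicle-treated Nlrx1-/- libraries (SD, n = 4 each), so that its RNA was lower and not absent in the libraries labelled as knockout. All 9 astrocyte markers examined were measured, and their summed level, as CPM of all assigned reads without further scaling, was 6976 to 10663 in vehicle-treated WT, 5584 to 8227 in stimulated WT, 5123 to 8372 in vehicle-treated Nlrx1-/- and 4681 to 6466 in stimulated Nlrx1-/- libraries. Limma called 4 of these 9 genes lower and 2 higher after stimulation in WT, beside 21.9% and 24.9% of all genes. In Nlrx1-/- litters it called 5 lower and 2 higher, beside 25.5% and 26.6%. Between stimulated genotypes 4 were called lower in Nlrx1-/- libraries (44.4%, against 4.41% of all genes) and 0 higher. The part of these differences in the results was not tested. The 10 microglial and macrophage markers together reached no more than 3.65 CPM in any library, and Cx3cr1, Tmem119 and Itgam had at most 5 reads. The 7 oligodendrocyte lineage markers summed to 944 to 1201 CPM in vehicle-treated and 623 to 869 in stimulated WT libraries, and to 846 to 1021 and 543 to 692 in Nlrx1-/- libraries, without overlap between treatments. Of these 7 genes, 5 were called lower after stimulation in either genotype by limma with the litter in the model, and the part of this fall in the responses was not tested. The 5 fibroblast and mural markers summed to at most 20.1 CPM and the 5 endothelial markers to at most 12.02. The 5 neuronal markers reached 14.98 to 21.6 CPM in vehicle and 56.7 to 87.9 in stimulated libraries, and most of the stimulated sum came from Tubb3. Nlrx1-/- litters 2 and 4 stood apart from the other litters. Their vehicle libraries had Gfap, the astrocyte intermediate filament, at 7.37 and 8.35 log2 CPM and Mbp, a myelin protein, at 2.49 and 2.998, while the other 6 vehicle libraries lay between 9.51 and 11.34 for Gfap and between 5.93 and 7.84 for Mbp. The labels give bulk RNA only, so that fewer cells of a type and less RNA per cell cannot be told apart.

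Levels of different genes were compared as TPM, which is per transcript length. Smad4, the SMAD shared by the TGF-β and BMP branches, was the most abundant of the 9 genes in every group, at 48.3 ± 0.774 TPM in vehicle-treated WT astrocytes (mean ± SD, n = 4 in this and the next sentences). Tgfbr1 followed at 23.2 ± 2.23 TPM and Smad3 at 21.6 ± 1.13, and the libraries of these neighbors overlapped. Tgfb2 came next at 18.1 ± 2.03 TPM, then Smad2 at 13.4 ± 0.72, Tgfbr2 at 6.9 ± 0.548, Tgfb3 at 5.5 ± 0.616, Smad7 at 3.39 ± 0.532 and Tgfb1 at 2.09 ± 0.558. From Smad3 downward, no library of a gene in vehicle-treated WT overlapped the libraries of the next gene in this order. The type I receptor thus had the higher level per length of the 2 receptors in all 4 groups. In stimulated Nlrx1-/- astrocytes Smad3 was at 32.5 ± 5.11 TPM and its libraries overlapped those of Smad4, at 36.4 ± 2.64 TPM. In both Nlrx1-/- groups Smad7 was below Tgfb1 in mean TPM, with overlapping libraries. Transcripts that could be paired with a symbol accounted for 69.3% to 102% of the deposited level of Tgfb1 and 59.2% to 109% of that of Smad7, against 94.0% to 104% for the other 7 genes. The TPM of Tgfb1 and Smad7 may therefore be too low in some libraries, and their place in the order is uncertain.

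**Figure D1:**
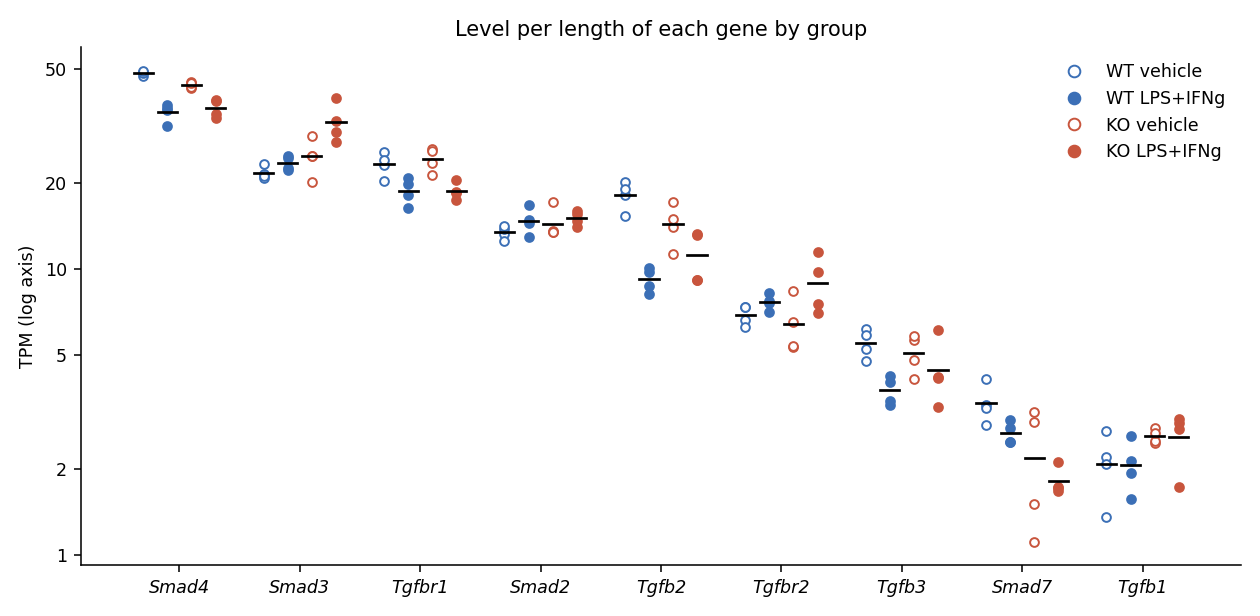
Level per length (TPM, log axis) of the 9 genes, ordered by their mean over groups. Each point is 1 library, open for vehicle and filled for LPS+IFNγ, blue for WT and red for Nlrx1-/- (KO), and bars are group means. Smad4 is highest and Tgfb1 and Smad7 lowest.

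Tgfb2 made up most of the ligand RNA per length. Its share of the summed TPM of the 3 ligands was 69.1% to 72.2% in vehicle-treated WT libraries and 58.8% to 64.4% in stimulated WT libraries, and these ranges did not overlap. In Nlrx1-/- libraries the share was 57.1% to 71.3% in vehicle and 56.9% to 67.8% after stimulation, which overlapped. Tgfb1 held 6.31% to 17.2% over all libraries, with the reservation on its paired transcripts. No test was run on these shares.

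The question of each litter-paired comparison was how 24 h of LPS+IFNγ changed the 9 genes within a genotype. Changes on stimulation were tested on the log2 CPM and not on TPM, since the authors' scaling differed between treatments: the deposited CPM summed to 923353 to 968650 in vehicle and 1038964 to 1109135 in stimulated libraries. The size of a change, and for some litters its direction, therefore differed between these scales. A gene was called when its adjusted p in limma, with the litter in the model and Benjamini-Hochberg adjustment over all 16707 genes, was below 0.05. In WT litters 6 of the 9 genes were called. Smad2, Smad3 and Tgfbr2 rose, where 24.9% of all genes rose, and Tgfb2, Tgfb3 and Smad4 fell, where 21.9% of all genes fell. In Nlrx1-/- litters 4 of the 9 genes were called. Smad2, Smad3 and Tgfbr2 rose, where 26.6% of all genes rose, and Tgfbr1 fell, where 25.5% of all genes fell. The median change of the 9 genes was -0.08 in WT and -0.05 in Nlrx1-/- litters, beside medians of -0.02 and -0.02 over all genes.

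**Figure D2:**
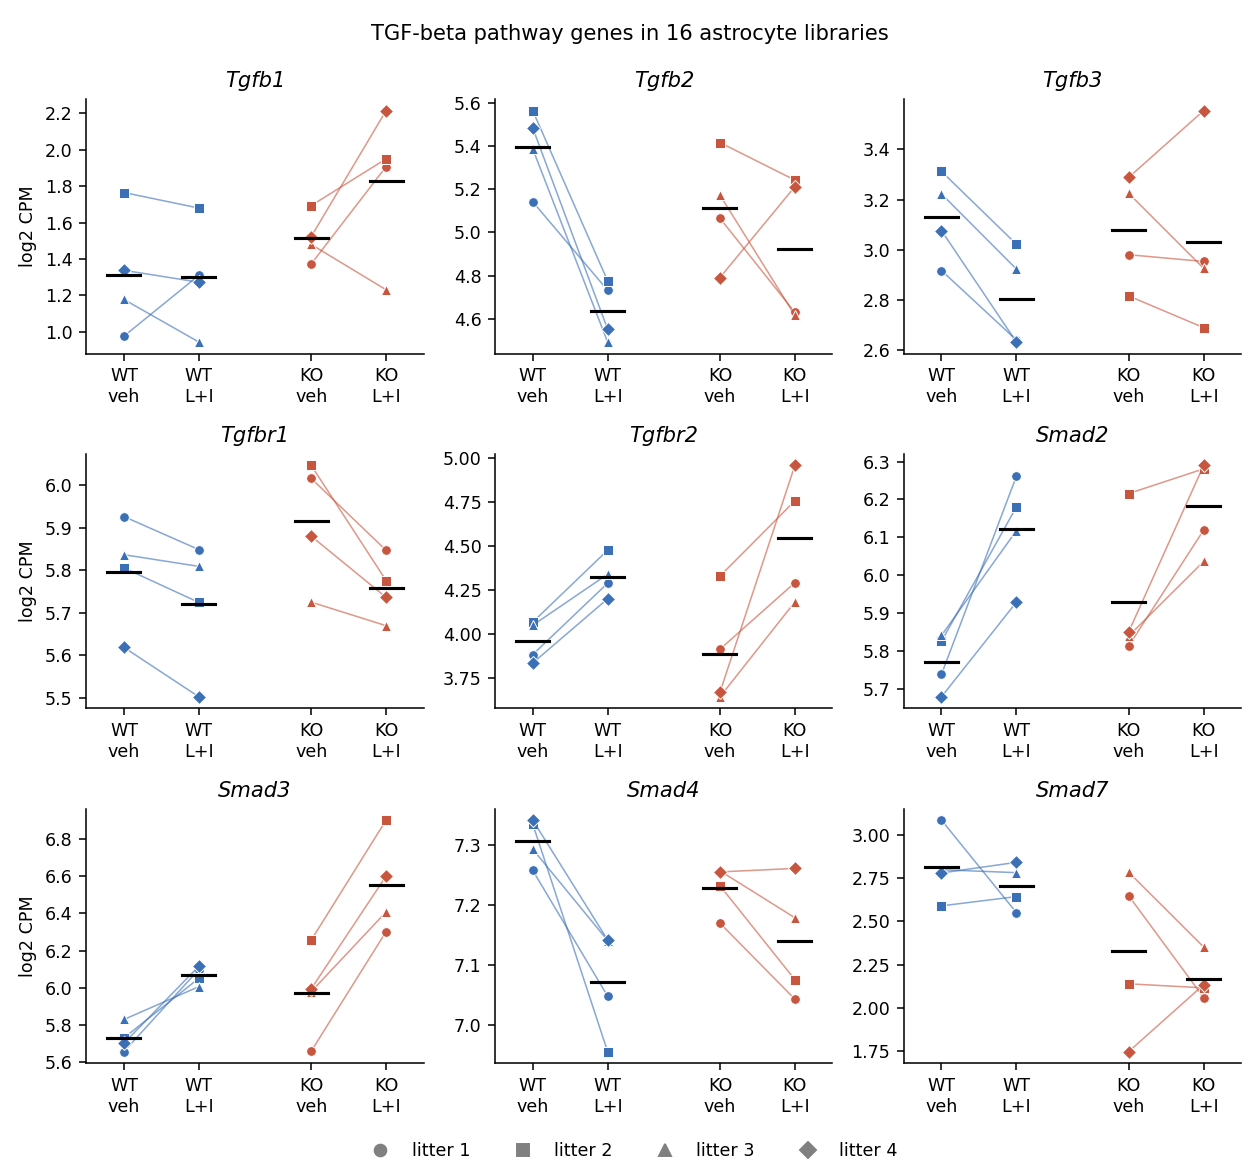
Deposited log2 CPM of the 9 genes in the 16 libraries (veh, vehicle; L+I, LPS+IFNγ; blue, WT; red, Nlrx1-/-, labelled KO). Lines join the 2 wells of a litter, symbols give the litter number within a genotype, and black bars are group means. Each panel has its own axis, which does not start at 0. The fall of Tgfb2 in 4 of 4 WT litters and the rise of Smad3 in 8 of 8 litters can be followed line by line.

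Tgfb2, the most abundant ligand, showed the largest change of the 9 genes in WT astrocytes. It lies on chr1:186354985-186438294 (GRCm39, minus strand). In WT litters 1 to 4 it was at 5.14, 5.56, 5.39 and 5.48 log2 CPM in vehicle and at 4.73, 4.78, 4.49 and 4.55 after LPS+IFNγ. Every stimulated WT library lay below every vehicle library. The fall was 0.76 ± 0.14 on the log2 scale (SE, limma adjusted p = 7.48e-04), and the stimulated level was 0.592 times that in vehicle. In Nlrx1-/- litters 1 to 4 it was at 5.07, 5.42, 5.17 and 4.79 in vehicle and at 4.63, 5.24, 4.62 and 5.21 after stimulation. It was lower after stimulation in litters 1, 2 and 3 and higher in litter 4, and the groups overlapped. The fitted change was -0.19 ± 0.14 (limma adjusted p = 0.278), and without litter 4 it was -0.39 with an adjusted p of 0.0129. Without litters 2 and 4, the pair with low Gfap and Mbp, it was -0.50 and was called (adjusted p = 0.00482), an alternative chosen after seeing the data. The libraries were not strand-specific, and the antisense genes Gm35546, Gm26169 and Gm29491 overlap Tgfb2, so that their reads cannot be told apart.

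The promoter window of Tgfb2 is shown because it is the member that fell most, and the sequence is that of RefSeq (table of GRCm38.p6). It runs from 250 bases before to 50 bases after the annotated start and matched once in chromosome 1 of GRCm39, at chr1:186438137-186438436 on the minus strand. Capitals mark a SMAD box, CAGACA, and a match of the NF-κB form.
Tgfb2 promoter: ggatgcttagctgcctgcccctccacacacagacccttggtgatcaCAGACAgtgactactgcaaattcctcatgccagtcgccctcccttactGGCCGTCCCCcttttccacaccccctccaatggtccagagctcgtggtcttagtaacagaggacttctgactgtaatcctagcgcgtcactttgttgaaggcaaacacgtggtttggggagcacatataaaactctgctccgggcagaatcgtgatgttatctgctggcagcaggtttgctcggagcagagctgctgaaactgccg
The SMAD box was found on either strand in 21% of 32851 promoter windows of the same length and the NF-κB form in 50.8%, so that both are common. The Tgfb2 window held neither the GAS form TTCNNNGAA, present in 8.3% of windows, nor the interferon response element, present in 3.44%.

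Tgfb3 changed less. It lies on chr12:86102756-86126301 (minus strand), and its 3′ end overlaps the coding gene Ttll5 on the other strand. Its level in WT litters 1 to 4 was 2.92, 3.31, 3.22 and 3.08 log2 CPM in vehicle and 2.64, 3.02, 2.92 and 2.63 after stimulation. It was lower in the stimulated well of 4 of 4 WT litters, and the groups overlapped. The change was -0.33 ± 0.12 (limma adjusted p = 0.039). The call was lost without any 1 of the WT litters, with adjusted p of 0.0786, 0.0904, 0.0914 and 0.127 in the order of the litter numbers, and without Nlrx1-/- litter 1 it was 0.052. In Nlrx1-/- litters the stimulated minus vehicle differences were -0.03, -0.13, -0.30 and 0.27, with a fitted change of -0.05 ± 0.12 (limma adjusted p = 0.769).

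Tgfb1, on chr7:25386390-25404506 (plus strand), was the ligand with the lowest level and rested on 42 to 123 paired reads per library. WT litters 1 to 4 had 0.98, 1.77, 1.18 and 1.34 log2 CPM in vehicle and 1.31, 1.68, 0.94 and 1.27 after stimulation, with 1 litter higher and 3 lower. The 95% interval of the WT change was -0.45 to 0.42, which allows a change of either sign up to these bounds. The Nlrx1-/- litters were at 1.37, 1.69, 1.48 and 1.52 in vehicle and 1.91, 1.95, 1.23 and 2.21 after stimulation. The change was 0.31 ± 0.20, higher in 3 of 4 litters, and was not called (limma adjusted p = 0.217).

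Of the receptors, Tgfbr2 rose in both genotypes and Tgfbr1 fell in Nlrx1-/- litters. Tgfbr2, which binds the ligand first, lies on chr9:115913361-116004800 (minus strand). Its level in WT litters 1 to 4 was 3.88, 4.07, 4.05 and 3.83 log2 CPM in vehicle and 4.29, 4.48, 4.34 and 4.20 after stimulation, and the groups did not overlap. The rise was 0.37 ± 0.13 (limma adjusted p = 0.0343), and the adjusted p was 0.0959, 0.104, 0.0737 and 0.0854 without WT litters 1, 2, 3 and 4. Nlrx1-/- litters were at 3.91, 4.33, 3.64 and 3.67 in vehicle and 4.29, 4.76, 4.18 and 4.96 after stimulation. Each litter rose, and litter 4 rose most, so that the groups overlapped through the vehicle library of litter 2. The rise was 0.66 ± 0.13 (limma adjusted p = 0.00109), and it was 0.45 without litter 4, with an adjusted p of 0.00142. The antisense genes Gm68731, Gm31292 and Gm4668, which have no coding sequence, overlap Tgfbr2.

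Tgfbr1, the signaling kinase, lies on chr4:47353134-47414931 (plus strand) and was lower in the stimulated well of 8 of 8 litters, by small amounts on the log2 CPM. Its mean TPM went from 23.2 to 18.7 in WT and from 24.1 to 18.7 in Nlrx1-/- litters. WT litters 1 to 4 had 5.93, 5.81, 5.84 and 5.62 log2 CPM in vehicle and 5.85, 5.72, 5.81 and 5.50 after stimulation, with overlapping groups and a change of -0.08 ± 0.05 (limma adjusted p = 0.266). Nlrx1-/- litters had 6.02, 6.05, 5.73 and 5.88 in vehicle and 5.85, 5.78, 5.67 and 5.74 after stimulation, again overlapping. Their change of -0.16 ± 0.05 was called (limma adjusted p = 0.0243), but not without litter 1 (adjusted p = 0.0736) or litter 2 (adjusted p = 0.104), nor without litters 2 and 4 together (adjusted p = 0.239). When each library was centered on its median gene, the WT change was -0.16 and was called (adjusted p = 0.0266).

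Smad3, a receptor-activated SMAD that binds DNA, rose in 8 of 8 litters on the log2 CPM. In TPM it fell in WT litter 3, from 23.3 to 22.2. It lies on chr9:63554049-63665476 (minus strand), and no annotated gene overlaps it. WT litters 1 to 4 were at 5.66, 5.73, 5.83 and 5.70 log2 CPM in vehicle and at 6.10, 6.05, 6.01 and 6.12 after stimulation. Nlrx1-/- litters were at 5.66, 6.26, 5.98 and 5.99 in vehicle and at 6.30, 6.90, 6.41 and 6.60 after stimulation. In either genotype every stimulated library lay above every vehicle library. The rise was 0.34 ± 0.06 in WT (limma adjusted p = 6.55e-04) and 0.58 ± 0.06 in Nlrx1-/- litters (limma adjusted p = 7.96e-06), or 1.26-fold and 1.49-fold.

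The promoter window of Smad3 is shown because the gene was called in both genotypes and between them. It matched once in chromosome 9 of GRCm39, at chr9:63665227-63665526 on the minus strand, and capitals mark the only match among the motifs searched, the NF-κB form, which begins at the annotated start.
Smad3 promoter: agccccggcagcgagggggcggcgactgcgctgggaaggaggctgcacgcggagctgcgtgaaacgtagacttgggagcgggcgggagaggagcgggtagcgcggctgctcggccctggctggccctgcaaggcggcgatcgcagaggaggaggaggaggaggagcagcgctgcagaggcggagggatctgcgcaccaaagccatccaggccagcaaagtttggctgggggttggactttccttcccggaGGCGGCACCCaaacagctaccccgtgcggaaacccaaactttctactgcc
Of the 9 genes, 5 were found in the promoter table, with 6 windows. The NF-κB form was in the windows of Tgfb1, Tgfb2, Tgfbr2 and Smad3, and the SMAD box in that of Tgfb2 and in the second of 2 windows of Tgfbr1. None of the 6 windows held the GAS form, the interferon response element, the SMAD palindrome GTCTAGAC (0.213% of all windows) or the AP-1 form TGANTCA (7.81% of all windows). These are matches of letters within the windows, searched on both strands, and binding was not measured.

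Smad2, the other SMAD activated by this receptor, lies on chromosome 18 and also rose in 8 of 8 litters on the log2 CPM. In TPM it fell in Nlrx1-/- litter 2, from 17.1 to 15.5. WT litters were at 5.74, 5.83, 5.84 and 5.68 log2 CPM in vehicle and 6.26, 6.18, 6.12 and 5.93 after stimulation, without overlap, a rise of 0.35 ± 0.07 (limma adjusted p = 0.00122). Nlrx1-/- litters were at 5.81, 6.22, 5.84 and 5.85 in vehicle and 6.12, 6.28, 6.04 and 6.29 after stimulation. The vehicle library of litter 2 was as high as the stimulated libraries, so that the groups overlapped, and the rise was 0.25 ± 0.07 (limma adjusted p = 0.00848).

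Smad4, the SMAD that receptor-activated SMADs share, had the smallest spread between litters of the 9 genes in vehicle. In WT litters it was at 7.26, 7.33, 7.29 and 7.34 log2 CPM in vehicle and 7.05, 6.96, 7.14 and 7.14 after stimulation, without overlap, and it fell by 0.23 ± 0.05 (limma adjusted p = 0.00227). In Nlrx1-/- litters it was at 7.17, 7.23, 7.26 and 7.25 in vehicle and 7.04, 7.08, 7.18 and 7.26 after stimulation, lower in 3 of 4 litters, with a change of -0.09 ± 0.05 that was not called (limma adjusted p = 0.159). Centering on the median gene gave -0.16 (adjusted p = 0.0177). Both of its annotated overlaps are without coding sequence.

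Smad7, the inhibitor that the pathway induces, was not called in either genotype. WT litters were at 3.09, 2.59, 2.80 and 2.78 log2 CPM in vehicle and 2.55, 2.64, 2.78 and 2.84 after stimulation, with 2 litters higher and 2 lower. Nlrx1-/- litters were at 2.65, 2.14, 2.78 and 1.75 in vehicle and 2.06, 2.12, 2.35 and 2.13 after stimulation, with 1 higher and 3 lower. The 95% intervals of the changes were -0.49 to 0.28 in WT and -0.55 to 0.22 in Nlrx1-/- litters, which allow changes of either sign.

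**Figure D3:**
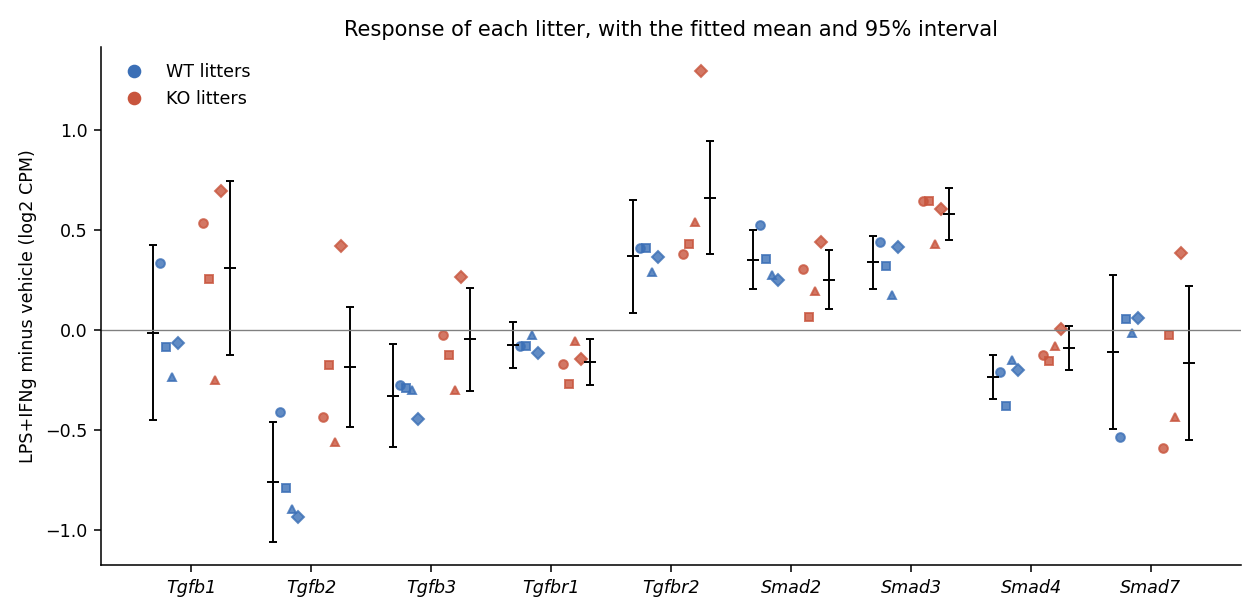
Stimulated minus vehicle log2 CPM of each litter (blue, WT; red, Nlrx1-/-, labelled KO; symbols give the litter numbers of the plot of levels), with the limma estimate and its 95% interval in black. Tgfb2 fell in all WT litters, Smad2, Smad3 and Tgfbr2 rose in all 8 litters, and Nlrx1-/- litter 4 (diamond) is highest for 7 of the 9 genes among the Nlrx1-/- litters.

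Whether the responses differed between genotypes was tested as the Nlrx1-/- response minus the WT response. None of the 9 genes was called, as was 0% of all genes by limma, with 2786 of 16707 genes at an unadjusted p under 0.05. DESeq2 called 111 genes upward and 185 downward, none of them among the 9, and edgeR called 0. Tgfb2 had the largest difference of the 9, 0.57 ± 0.19 (95% interval 0.15 to 0.99, limma unadjusted p = 0.0126, adjusted p = 0.193). The responses of Tgfb2 were -0.41, -0.79, -0.90 and -0.93 in WT litters and -0.44, -0.17, -0.56 and 0.42 in Nlrx1-/- litters, so that only Nlrx1-/- litter 4 lay outside the direction of the other 7. The difference for Smad3 was 0.24 ± 0.08 (95% interval 0.06 to 0.43, limma unadjusted p = 0.0148, adjusted p = 0.203). The Smad3 responses were 0.44, 0.32, 0.18 and 0.41 in WT and 0.64, 0.64, 0.43 and 0.61 in Nlrx1-/- litters. For 0 of the 9 genes were the litter responses of the genotypes free of overlap, beside 8.31% of all genes. The adjusted p values over the other 7 genes ran from 0.325 for Smad4 to 0.941 for Smad7.

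The genotypes were then compared at each treatment, with the 4 groups as the terms of the fit, since a litter term would absorb the genotype. In vehicle 0 of the 9 genes were called by limma, where 0.00599% of all genes, Nlrx1 alone, were called. DESeq2 called 459 genes higher and 278 lower in this comparison, and edgeR called 0. Smad7 had the largest difference and the only unadjusted p under 0.05 among the 9. It was 2.81 ± 0.20 log2 CPM in WT and 2.33 ± 0.48 in Nlrx1-/- libraries (SD, n = 4 each), a difference of -0.48 ± 0.20 (limma unadjusted p = 0.0255, adjusted p = 0.185). The lowest Smad7 values, 2.14 and 1.75, were those of Nlrx1-/- litters 2 and 4, the litters with the lowest Gfap and Mbp. Without these litters the Smad7 difference was -0.10 (adjusted p = 0.902). Smad4 was the only gene whose vehicle libraries did not overlap between genotypes, as was so for 9.45% of all genes, and it differed by -0.08 ± 0.06 (limma adjusted p = 0.463).

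After LPS+IFNγ, 1 of the 9 genes was called higher in Nlrx1-/- astrocytes, where 4.4% of all genes were, and 0 were called lower, where 4.41% of all genes were. The called gene was Smad3, at 6.07 ± 0.05 log2 CPM in WT and 6.55 ± 0.26 in Nlrx1-/- libraries (SD, n = 4 each). The difference was 0.48 ± 0.12 (95% interval 0.23 to 0.74, limma adjusted p = 0.0355), or 1.4-fold. This fit takes both wells of a litter as independent. With the litter as a random effect the adjusted p was 0.0215, and in a fit of the 8 stimulated libraries alone the call was lost (adjusted p = 0.0699), with 0 genes called higher and 1 lower over all genes. The highest Smad3 values, 6.90 and 6.60, were again those of Nlrx1-/- litters 2 and 4, and the adjusted p was 0.0598 without litter 2 and 0.129 without litter 4. Without both litters the difference was 0.29 (adjusted p = 0.261), and over all genes 1 was called higher and 2 lower, with 2 Nlrx1-/- litters left in the fit. The adjusted p for Smad3 was 0.112, 0.122 and 0.132 without WT litters 2, 3 and 4. The estimate without any 1 litter stayed between 0.37 and 0.57. The stimulated libraries of litters 2 and 4 also had the lowest Gfap and Mbp, and beyond leaving out these litters the part of that difference in the result was not tested.

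Smad3 and Smad7 were the 2 of 9 genes whose stimulated libraries did not overlap between genotypes, as was so for 13.3% of all genes. Smad7 was lower, at 2.70 ± 0.13 log2 CPM in WT and 2.17 ± 0.13 in Nlrx1-/- libraries. The difference of -0.54 ± 0.20 missed the threshold (limma adjusted p = 0.0842), and it was called only without Nlrx1-/- litter 3 (adjusted p = 0.0376). Tgfb1 differed by 0.52 ± 0.23 (limma adjusted p = 0.147) and was likewise called only without that litter (adjusted p = 0.035). The responses within a genotype and the comparisons between genotypes use the same libraries and are not independent of each other.

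**Figure D4:**
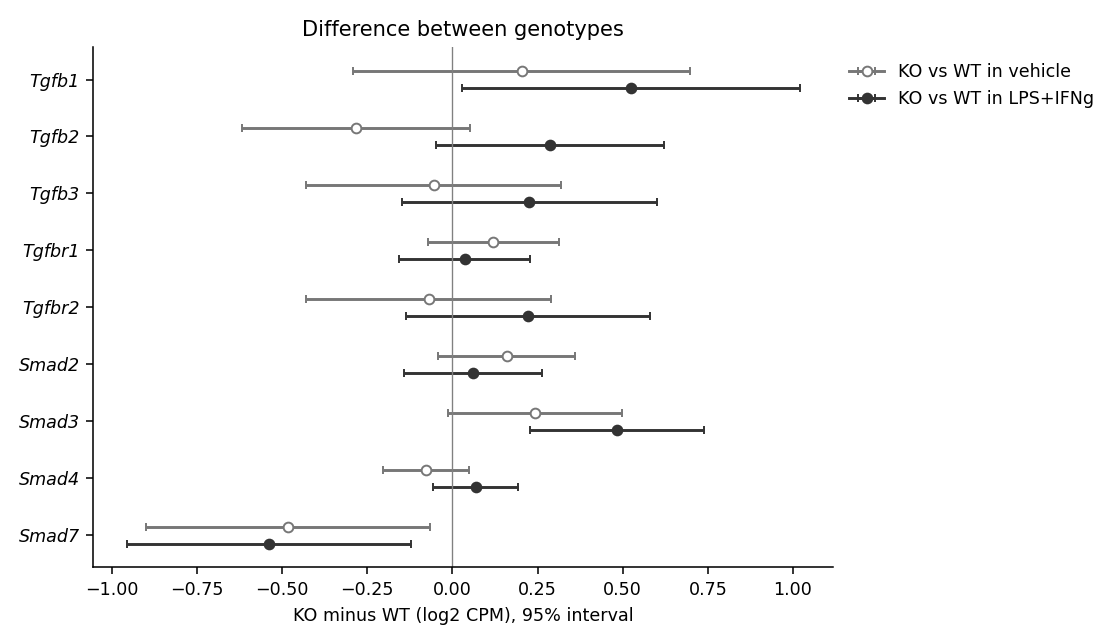
Difference between genotypes (Nlrx1-/-, labelled KO, minus WT, log2 CPM) of the 9 genes in vehicle (open) and after LPS+IFNγ (filled), with the 95% interval of limma. The interval of Smad3 after stimulation runs from 0.23 to 0.74, and those of Smad7 lie below 0 at both treatments before adjustment over all genes.

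Transcript variants were examined for the members with a second variant in use. Tgfb2 and both receptors have annotated variants that differ by a short coding stretch, and these stretches are shown because they set the variants apart. They are read from GRCm39 with the exons of GENCODE M39, chosen as the coding stretch whose length equals the length difference of the 2 leading RefSeq transcripts. In Tgfb2 it is an exon of 84 bases (chr1:186422918-186423001, minus strand) that lies in the propeptide part of the precursor. In Tgfbr2 it is an exon of 75 bases (chr9:115987339-115987413, minus strand). In Tgfbr1 it is a start of an exon that is 12 bases earlier, shown in capitals with the 18 bases that follow (chr4:47393247-47393276, plus strand).
Tgfb2 exon: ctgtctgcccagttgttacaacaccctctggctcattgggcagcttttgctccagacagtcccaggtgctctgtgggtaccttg
Tgfbr2 exon: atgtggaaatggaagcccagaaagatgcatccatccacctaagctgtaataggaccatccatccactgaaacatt
Tgfbr1 exon start: GACCTTTTTCAGaaaagcagtcagctggcc

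The shorter Tgfb2 transcript carried 71.4% to 87.1% of the gene's TPM over the 16 libraries and the one with the 84-base exon 11.3% to 26.9%. The Tgfbr2 transcript without the 75-base exon carried 36.9% to 73.9%. The leading Tgfbr1 transcript, without the 12 bases, ranged from 25.4% to 77.8%, and from 38.7% to 77.8% within vehicle-treated WT libraries alone. In Tgfb2 and both receptors the 2 leading transcripts share nearly all of their sequence, so that few reads tell them apart. Their shares are estimates, and the error of these was not assessed. The leading transcript carried 76.5% to 92.4% of Smad2 and 64.4% to 87.8% of Smad4. The leading Smad7 transcript carried all of the TPM in most libraries and 43.5% to 65.4% in 3 libraries of 3 different groups. In 18 exact permutation tests (two-sided, sign flips over 8 litters for stimulation and 4 against 4 for genotype) of these 6 genes, no share passed the threshold. The smallest p was 0.143 for Smad4 between stimulated genotypes, and Benjamini-Hochberg adjusted values were 0.994 or higher. The smallest p these designs allow is 0.00781 over 8 litters and 0.0286 for 4 against 4. In Tgfb2 the mean share was 83.1% ± 4.5 in vehicle and 77.6% ± 7.3 after stimulation in WT, and 82.0% ± 1.88 and 83.5% ± 1.57 in Nlrx1-/- libraries (SD, n = 4 each).

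The other genes of the pathway were counted in 5 lists, in the order in which they act. Of 16 measured genes of latency and activation, 7 rose and 5 fell in WT and 8 rose and 6 fell in Nlrx1-/- litters, with median changes of 0.25 and 0.40. As shares of the list, 43.8% and 31.2% rose and fell in WT, beside 24.9% and 21.9% of all genes, and 50% and 37.5% in Nlrx1-/- litters, beside 26.6% and 25.5%. Itgb3, the integrin β chain that with αv can release latent TGF-β, went from 1.07 ± 0.29 to 3.14 ± 0.40 log2 CPM in WT, a change of 2.07 ± 0.28 (SE, limma adjusted p = 8.92e-05), and changed by 1.30 ± 0.28 in Nlrx1-/- litters. Ltbp1, a latent TGF-β binding protein, rose by 1.36 ± 0.14 in WT and 1.24 ± 0.14 in Nlrx1-/- litters, and Fbn1, the matrix fibrillin that anchors it, by 0.77 ± 0.08 and 0.85 ± 0.08. Other binding proteins fell. Ltbp3 changed by -0.48 ± 0.05 in WT and -0.41 ± 0.05 in Nlrx1-/- litters, Ltbp4 by -0.31 ± 0.08 and -0.63 ± 0.08, and the scarce Ltbp2 by -1.09 ± 0.39 in WT and -1.77 ± 0.39 in Nlrx1-/- litters. Mmp2, a matrix protease, changed by -1.26 ± 0.14 in WT and -0.53 ± 0.14 in Nlrx1-/- litters. Between stimulated genotypes, Mmp2 was 1.35 ± 0.33 higher in Nlrx1-/- astrocytes (limma adjusted p = 0.0349), while Itgb3 differed by -1.41 ± 0.37 and Itgb5, another integrin β chain, by -0.30 ± 0.08.

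Among 13 measured coreceptors and other receptors of the superfamily, 1 rose and 6 fell in WT and 4 rose and 5 fell in Nlrx1-/- litters, with medians of -0.10 and -0.11. These were 7.69% and 46.2% of the list in WT (24.9% and 21.9% of all genes) and 30.8% and 38.5% in Nlrx1-/- litters (26.6% and 25.5% of all genes). Bambi, a receptor without kinase activity that dampens TGF-β signaling, went from 2.31 ± 0.43 to 3.40 ± 0.17 log2 CPM in Nlrx1-/- litters, a rise of 1.09 ± 0.17 (SE, limma adjusted p = 2.43e-04). Eng, the coreceptor endoglin, rose by 1.28 ± 0.31 and Acvr1, a type I receptor of BMPs, by 0.39 ± 0.10 in Nlrx1-/- litters. Eng RNA was scarce, at a mean of 0.07 log2 CPM over all libraries. In WT the changes of Bambi, Eng and Acvr1 were 0.36 ± 0.17, 0.67 ± 0.31 and 0.25 ± 0.10 and were not called (limma adjusted p = 0.112, 0.0952 and 0.061). Bmpr1a, a BMP receptor, rose in both genotypes, by 0.39 ± 0.04 in WT and 0.29 ± 0.04 in Nlrx1-/- litters. The activin receptor Acvr2b changed by -0.94 ± 0.13 in WT and -1.01 ± 0.13 in Nlrx1-/- litters, and the BMP receptor Bmpr1b by -0.69 ± 0.14 and -1.17 ± 0.14. Acvr1c, a type I receptor of scarce RNA, had changes of -1.91 ± 0.64 and -2.06 ± 0.64. Between stimulated genotypes, Eng was 1.21 ± 0.32 higher and Bmpr1b and Bmpr1a differed by -0.77 ± 0.19 and -0.24 ± 0.07 (limma adjusted p = 0.0379, 0.035 and 0.0412).

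Of the 4 other SMADs, 0 rose and 2 fell in either genotype, where 21.9% of all genes fell in WT and 25.5% in Nlrx1-/- litters. Smad9, which acts in the BMP branch, changed by -1.33 ± 0.10 in WT and -1.35 ± 0.10 in Nlrx1-/- litters, the largest change among the SMADs measured. Smad6, the inhibitory SMAD of that branch, changed by -1.10 ± 0.31 and -0.94 ± 0.31. Its RNA was scarce, at a mean of 0.40 log2 CPM over all libraries, and its Nlrx1-/- groups overlapped. Smad1 and Smad5 were not called.

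Of 19 SMAD regulators, 3 rose and 7 fell in WT and 8 rose and 8 fell in Nlrx1-/- litters, with medians of -0.07 and -0.04. The shares that rose and fell were 15.8% and 36.8% in WT, against 24.9% and 21.9% of all genes, and 42.1% and 42.1% in Nlrx1-/- litters, against 26.6% and 25.5%. Smurf1, a ubiquitin ligase for SMADs and receptors, rose by 0.43 ± 0.09 in WT and 0.65 ± 0.09 in Nlrx1-/- litters. Fkbp1a, which binds the resting type I receptor, rose by 0.44 ± 0.06 and 0.38 ± 0.06. Ppm1a, a SMAD phosphatase, rose by 0.16 ± 0.06 in WT and 0.31 ± 0.06 in Nlrx1-/- litters. Tgif1, a corepressor, rose by 0.72 ± 0.17 in Nlrx1-/- litters, and its WT change of 0.27 ± 0.17 was not called (limma adjusted p = 0.219). Dab2, an endocytic adaptor linked to TGF-β receptors, changed by -1.29 ± 0.07 and -1.36 ± 0.07. Pmepa1, a TGF-β-induced inhibitor of SMAD activation, changed by -1.11 ± 0.12 and -0.88 ± 0.12, and the ubiquitin ligase Nedd4l by -0.55 ± 0.11 and -0.56 ± 0.11. After stimulation Strap and the deubiquitinase Usp15 were 0.33 ± 0.09 and 0.29 ± 0.09 higher in Nlrx1-/- astrocytes.

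Of 26 SMAD target genes, 5 rose and 10 fell in WT and 5 rose and 6 fell in Nlrx1-/- litters, with medians of -0.18 and -0.03. The shares were 19.2% and 38.5% in WT, against 24.9% and 21.9% of all genes, and 19.2% and 23.1% in Nlrx1-/- litters, against 26.6% and 25.5%, so that the Nlrx1-/- shares and the WT share that rose were not above those of all genes. The genes with the largest rises were Cdkn2b and Cdkn1a, which encode cell cycle inhibitors, and Junb, a transcription factor, all of which respond to many other stimuli as well. Cdkn2b rose by 1.73 ± 0.12 in WT and 2.02 ± 0.12 in Nlrx1-/- litters, Cdkn1a by 1.61 ± 0.09 and 1.98 ± 0.09, and Junb by 1.35 ± 0.17 and 2.06 ± 0.17. Ccn2, a matricellular protein often used as a readout of TGF-β, went from 6.26 ± 0.29 to 4.56 ± 0.51 log2 CPM in WT litters and changed by -1.70 ± 0.35 (SE, limma adjusted p = 0.00175). Its change of -0.66 ± 0.35 in Nlrx1-/- litters was not called (limma adjusted p = 0.135). Angptl4 changed by -2.05 ± 0.20 and -2.05 ± 0.20, Lmcd1 by -1.13 ± 0.37 and -1.82 ± 0.37, and the oxidase Nox4 by -0.79 ± 0.26 and -0.98 ± 0.26, in the order WT and Nlrx1-/-. Lmcd1 and Nox4 had low levels, with means of 0.10 and 0.86 log2 CPM over all libraries. After stimulation Cdkn1a was 1.12 ± 0.28 and Col4a1, a basement membrane collagen, 0.33 ± 0.09 higher in Nlrx1-/- than in WT astrocytes. In vehicle 0 genes of the 5 lists were called between genotypes, and 0 were called for a difference of responses. The calls after stimulation had adjusted p of 0.035 to 0.048 and each was lost without at least 5 of the 8 litters.

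Some calls within a genotype rested on single litters. In WT, Acvr1c and Ppm1a were not called without any 1 of the WT litters, Ltbp2 without litter 1, 2 or 3, Lmcd1 without litter 2 or 4 and Smad6 without litter 3 or 4. Of the 8 fits that left out 1 litter of either genotype, the WT rise of Ppm1a was called in 2. In Nlrx1-/- litters, Acvr1c was not called without litter 1 or 4 and Smad6 without litter 1 or 3.

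**Figure D5:**
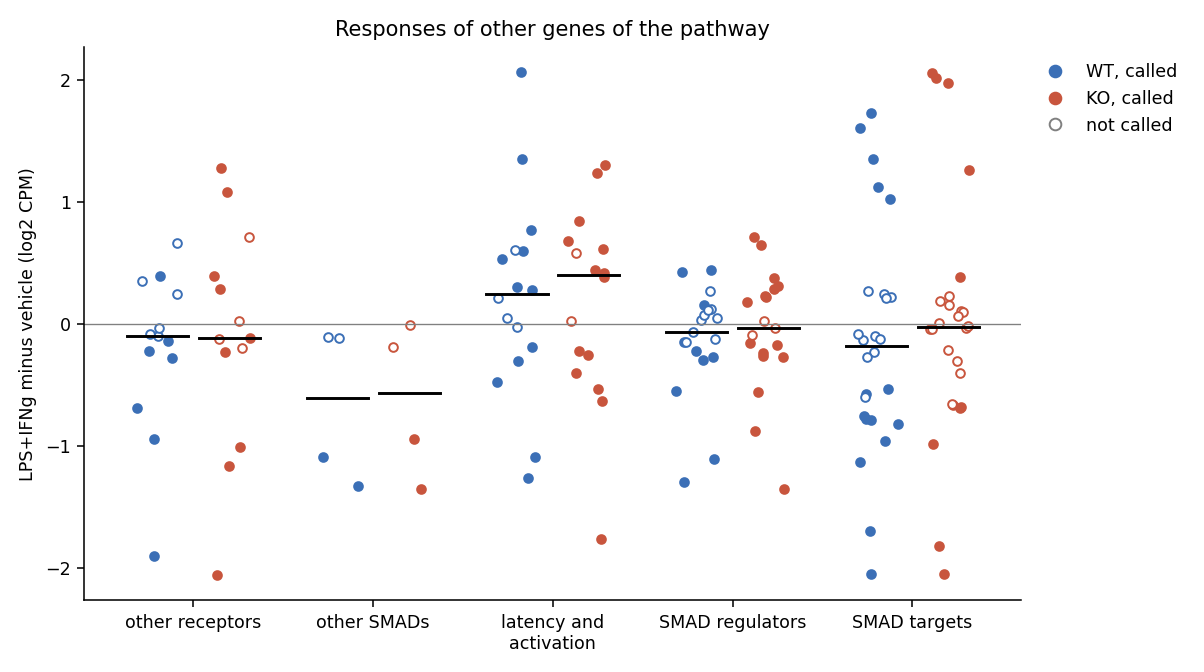
Stimulated minus vehicle change (log2 CPM) of each measured gene in the 5 lists of pathway genes, for WT (blue) and Nlrx1-/- (red, labelled KO). Filled points were called by limma, open points were not, and black bars are medians over the list. Called genes lie on both sides of 0 in 4 of the lists, and the other SMADs were called downward only.

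Among the 9 genes, log2 CPM over the 16 libraries was most alike for Tgfbr2 and Smad2 (Pearson r = 0.86) and for Smad2 and Smad3 (r = 0.81), and least alike for Tgfb1 and Smad7 (r = -0.67) and for Smad2 and Smad4 (r = -0.64). The libraries share litters and treatments, so these values describe the groups as well as the litters. Over all genes, the pattern of Smad3 was most like those of Sec31a and Synj2 (r = 0.98 and 0.97), that of Smad2 like Gart and Lasp1 (r = 0.95 for both), and that of Tgfbr2 like Spring1 and Nus1 (r = 0.95 and 0.94). Smad7 was most like Cdc42ep2 and Tmem151a (r = 0.92 and 0.91), and Smad4 like Zfp866 and Zfp442 (r = 0.90 for both). Tgfbr1 was most like Bok and Eny2 (r = 0.90 for both). For the ligands, the most similar genes were Nkapd1 and Adamts9 for Tgfb2 (r = 0.89 for both), Mrpl24 and Palm3 for Tgfb3 (r = 0.87 and 0.77), and Ric8a and 2310057M21Rik for Tgfb1 (r = 0.86 and 0.85).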

How the data were processed

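RNA-seq libraries (poly-A, not strand-specific, paired-end) were quantified by the authors with Salmon 1.7.0 against the RefSeq transcriptome of GRCm39, and they deposited an expected count and a TPM for each of 129698 transcripts. The signal values the authors deposited are CPM made from length-scaled counts after removal of weakly expressed genes, with TMM scaling of the libraries, and the deposited log2 values are the log2 of these CPM.

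Groups, litters and doses were taken from the labels. The labels state that the 2 wells of a litter came from the same mice, and the deviations of paired libraries from their group means correlated with r of 0.073 to 0.355 over 8 litters (median 0.218, against -0.052 between other litters of a genotype). Deviations from a group mean cancel within the group, which by itself lowers the value between other litters, so that it is not an independent baseline. The responses and their difference were fitted with limma 3.58.1 (R 4.3.3) to the deposited log2 CPM of 16707 genes, with terms for the 8 litters and a variance trend. For the genotypes the 4 groups were the only terms. Adjusted p values are Benjamini-Hochberg over all genes. For each gene, TPM and expected counts were added up from those of 106440 transcripts that a RefSeq accession tied to a symbol. On the expected counts, edgeR 4.0.16 and DESeq2 1.42.0 were run as alternatives, with rounding for DESeq2 only. On simulated data with 200 genes changed by 1 log2 unit among 16707, limma recovered 68% of the changed genes for the WT response, 69.5% for the Nlrx1-/- response, 60% for the difference of responses, and 71% and 77% for the genotypes in vehicle and after stimulation. Of the calls, 9.33%, 7.33%, 4.00%, 6.58% and 5.52% were unchanged genes in the same order, above the nominal level of 5% in 4 of the 5 comparisons. These rates describe the simulated setting, in which the size of the litter effects was set and not estimated. In the data 24.9% of all genes rose and 21.9% fell in WT, and every change of the 9 genes was smaller than 1 log2 unit. The rates need therefore not hold for the tests reported here. Every member was named. From each pathway list up to 3 called genes with the largest rise and up to 3 with the largest fall were named per comparison, and for each member the 2 genes with the highest Pearson r. Members, lists and tests were chosen with earlier results of these data known. Gene positions are from GENCODE M39 (GRCm39) and promoters from RefSeq (GRCm38.p6), and Python 3 scripts computed the remaining values.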

Additional observations from a re-analysis of the deposited data

Results flagged for a closer look

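Among 54 sets of 4 values tested for a value far from the rest by Dixon's criterion, 3 were found, about what 1 in 20 by chance gives. The Tgfb3 response of WT litter 4 was -0.443 log2 units, while the other WT litters lay between -0.276 and -0.299. Smad2 in the vehicle library of Nlrx1-/- litter 2 was at 6.22 log2 CPM, while the other 3 litters lay between 5.81 and 5.85. The Smad7 response of WT litter 1 was -0.535, while the other WT litters lay between -0.017 and 0.062.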

How the results depend on the processing

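The WT calls of Tgfb2, Smad2, Smad3 and Smad4 and the Nlrx1-/- calls of Tgfbr2, Smad2 and Smad3 kept their direction and stayed called under every alternative run. Over all alternatives, 780 of 846 values of the 9 genes kept direction and side of the threshold, 27 lost a call, 6 gained one and 33 changed sign, none of the last being called. Without the litter as a block, Tgfb3 (adjusted p = 0.164), Tgfbr2 in WT (adjusted p = 0.103) and Tgfbr1 in Nlrx1-/- litters (adjusted p = 0.171) were not called, and 4 of 9 genes in WT and 3 of 9 in Nlrx1-/- litters were. The Tgfbr2 call in WT was also lost with RLE size factors (adjusted p = 0.0538), after centering (adjusted p = 0.0831) and without a variance trend (adjusted p = 0.0723), and that of Tgfb3 in edgeR without a count filter (adjusted p = 0.0637). The cause was not tested.

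On expected counts, sign changes concerned Tgfb1 and Smad7, whose paired reads are incomplete. In the order edgeR, DESeq2, edgeR with RLE size factors and edgeR without a count filter, the WT response of Tgfb1 was 0.210, 0.184, 0.190 and 0.210, its difference of responses -0.071, -0.046, -0.056 and -0.070, the Nlrx1-/- response of Smad7 0.0084, 0.0042, 0.0027 and 0.0078, and its difference of responses 0.120, 0.136, 0.135 and 0.120. Leaving out 1 litter at a time gave -0.128 to 0.0612 for Tgfb1 and -0.166 to 0.0327 for Smad7 in WT, -0.150 to 0.0375 for Tgfb3 in Nlrx1-/- litters and -0.239 to 0.0863 for the difference of responses of Smad7. It gave -0.126 to 0.0323 for Tgfb3 and -0.217 to 0.0118 for Tgfbr2 between genotypes in vehicle, and -0.0368 to 0.0783 for Tgfbr1 and -0.0048 to 0.108 for Smad2 after stimulation.

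Leaving out Nlrx1-/- litters 2 and 4 together, an alternative chosen after seeing the data, gave -0.0152 for Tgfb2, -0.0892 for Tgfbr2 and -0.0443 for Smad2 between stimulated genotypes and 0 of 9 genes called. Over all genes it left 1 up and 2 down after stimulation and 2 down in vehicle.

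The call of Smad3 between stimulated genotypes was lost (0 of 9 genes called) without a variance trend, on the 8 libraries of the treatment alone and at an adjusted p of 0.01, and leaving out 1 litter gave 0 to 3 called genes. Over all genes, the genotype counts after stimulation, 735 up and 736 down, were 395 and 364 in edgeR, 1227 and 1210 in DESeq2, 483 and 389 with RLE size factors, 293 and 259 without a count filter, 1 and 1 without a trend, 0 and 1 on 8 libraries, 0 and 1 at 0.01, and 1370 and 1445 with the replicate number as a block. The number pairs no animals across genotypes. Leaving out 1 litter gave 0 to 1888 up and 1 to 1980 down, the highest without Nlrx1-/- litter 3. In vehicle, the counts of 0 up and 1 down became 459 and 278 in DESeq2, 358 and 233 with the number as a block and 0 and 2 after centering, with 0 down in edgeR, with RLE size factors, for genes of mean log2 CPM of at least 0, without a trend, on 8 libraries and at 0.01. Leaving out 1 litter gave 0 to 688 up and 0 to 930 down. The difference of responses had 111 up and 185 down in DESeq2, 1 down in edgeR without a count filter, and 0 to 378 up and 0 to 444 down without 1 litter. At 0.01, 2395 genes fell in WT. Tgfb1 rested on 42 to 123 paired reads per library and Smad7 on 96 to 329.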
